A study of Homo sapiens with 4 samples.

Results

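A set of 94 genes was lower in a lapatinib-resistant clone of SkBr3 cells than in its parental cells and higher in a lapatinib-resistant clone of BT474 cells than in its own. SkBr3 and BT474 are human breast cancer cell lines with amplified ERBB2, the gene of the HER2 receptor, and lapatinib is an inhibitor of the HER2 and EGFR kinases. The 4 samples, with 1 array each, were parental SkBr3 cells and parental BT474 cells, both labelled as vehicle, and 1 resistant clone of each line, named here SkBr3/Lap and BT474/Lap, selected with rising lapatinib to a highest concentration of 1 μM. All cells were grown in DMEM/F12 medium, each resistant sample is a single clone, and the labels give no culture, passage or second sample of any group. The labels number the SkBr3 clone 3 and the BT474 clone 6, whereas the study's text and file names have these numbers the other way round, so the groups were taken from the sample titles.

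Each gene was measured as the brightness of oligonucleotide spots, and its level is the log2 signal minus the 75th percentile of the same array, so that a level of 0 is the 75th percentile and a difference of 1 is a doubling. Genes were chosen by their measured values. A probe entered when it had a RefSeq gene symbol, was marked well above background on all 4 arrays, and differed between clone and parental cells by -1.3 or less in SkBr3 and by 1.3 or more in BT474, where 1.3 on the log2 scale was the threshold for both clones. In a bulk sample fewer cells of a type and less RNA per cell cannot be told apart. This gave 103 probes of the 94 genes, out of 16398 named probes, of 11517 genes, that met the background criterion. The changes that defined the set are therefore given as a description and without any test. With 1 array per group there is no replicate, no error between samples and no p-value, and the number of arrays limits the precision. The spread that could be measured is that between repeated spots of 1 probe on the same array. Its median SD was 0.06 to 0.07 on the log2 scale, over probes spotted 10 times and well above background. Only 2 of the 103 probes of the set were spotted 10 times, with SDs of up to 0.26 where they were dim. The others had 1 spot each, so their spread was not measured.

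The cells were checked against genes that mark them. ERBB2 had processed signals of 238524, 118706, 256346 and 237327 on the parental SkBr3, SkBr3/Lap, parental BT474 and BT474/Lap arrays, and its level was 1.90 lower in SkBr3/Lap than in parental SkBr3. KRT18, a keratin of luminal epithelium, was well above background on every array. CDH1, the gene of E-cadherin, was not well above background in either SkBr3 sample and had signals of 44710 and 56836 in the BT474 samples. ESR1, the gene of estrogen receptor alpha, was not well above background in parental SkBr3, and its signals were 31.6 in SkBr3/Lap, 1067 in parental BT474 and 2851 in BT474/Lap. All 10 luminal epithelial markers were well above background on the 4 arrays, with summed signals between 833442 and 1084293. Among them SPDEF, a luminal transcription factor, was lower in SkBr3/Lap, with signals of 15517, 386, 18690 and 11852, and GRB7, the neighbour of ERBB2, was 1.19 lower there. The summed signals of the fibroblast, leukocyte, endothelial, adipocyte and melanocyte or neural markers lay between 196 and 4465 on any array. Endothelial sums were 196, 1424, 914 and 669 in parental SkBr3, SkBr3/Lap, parental BT474 and BT474/Lap. Melanocyte or neural sums were 374, 4465, 381 and 1594 in the same order. Both were highest in SkBr3/Lap, as were the fibroblast (2619) and leukocyte (2765) sums. These sums were not scaled to the array, and the SkBr3/Lap array had the highest 75th percentile, so they alone do not rank the samples. In SkBr3/Lap PMEL had a signal of 4405, CDH5 of 915 and COL3A1 of 347. Well above background were 1 to 4 of 8 fibroblast, 5 to 7 of 9 leukocyte, 1 to 4 of 5 endothelial, 2 to 3 of 4 adipocyte and 1 to 4 of 5 melanocyte or neural markers, while PTPRC, DCN, LUM and S100B were so on no array. The part of these markers in the differences was not tested. Each clone was most like its own parental cells, with a Pearson r across 25063 probes of 0.94 in SkBr3 and 0.97 in BT474, against 0.86 to 0.90 for the pairs across lines. The SkBr3/Lap array was hybridised on another slide than the 3 other arrays, so slide and clone cannot be told apart for SkBr3, and its 75th percentile was at a signal of 2074, against 1115, 1158 and 1681 on the parental SkBr3, parental BT474 and BT474/Lap arrays.

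As background, a tyrosine kinase inhibitor that blocks HER2 lowers signalling through the PI3K and MAPK pathways, and cells that grow in its presence can be picked as clones, each grown from a single cell. Retinaldehyde is oxidised to retinoic acid by ALDH1A enzymes, estrone is reduced to the stronger estrogen estradiol by HSD17B1, class II MHC molecules are loaded with peptide by the HLA-DM dimer, and ID proteins bind basic helix-loop-helix transcription factors and keep them off DNA.

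Among the 16398 named probes, 7.81% were at or below -1.3 in SkBr3/Lap and 3.62% at or above 1.3 in BT474/Lap. Both held for 0.628% of the probes, which are the 103 probes of the set. The opposite combination, higher in SkBr3/Lap and lower in BT474/Lap past the same threshold, held for 60 probes of 53 genes, or 0.366%. Probes higher in both clones made up 0.866% and probes lower in both 0.482%. A further 8665 probes without a RefSeq symbol met the background criterion, and 95 of them, or 1.096%, passed both thresholds as well. Since the rule fixed these counts, nothing is read from them about the genes.

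**Figure D1:**
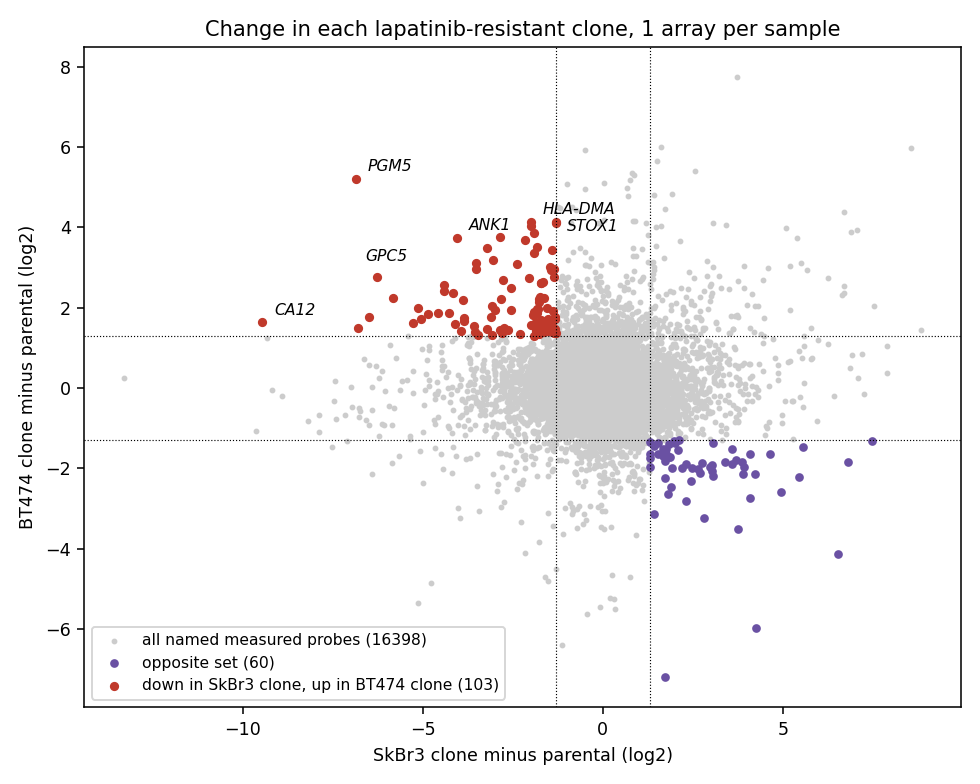
Log2 change in SkBr3/Lap (horizontal) against log2 change in BT474/Lap (vertical) for each of the 16398 named probes that met the background criterion. Dotted lines mark the threshold of 1.3 in either direction. The 103 probes of the set (red) lie in the upper left, from PGM5 (-6.86 and 5.20) to probes at the threshold, and the 60 probes of the opposite combination (purple) in the lower right.

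The median change of the 103 probes was -1.92 in SkBr3/Lap, with quartiles of -3.35 and -1.65, and 1.83 in BT474/Lap, with quartiles of 1.502 and 2.61. Over all named probes the medians were -0.09 and -0.11. The change was larger in SkBr3/Lap for 62 probes and larger in BT474/Lap for 41. At least a 4-fold difference in both clones, a log2 change of 2, was reached by 22 probes, and a log2 change of 3 in both by 5. PGM5 was the 1 probe beyond 4 and beyond 5 in both. The probes just inside the threshold were those of PDK2, with -1.92 and 1.303, RUFY2, with -1.31 and 1.38, and both probes of STOX1, with -1.304 and 4.14 and with -1.31 and 4.10. Just outside were SF1 (-1.299 and 1.51), SEC62 (-1.66 and 1.298), BIVM (-3.65 and 1.29) and DOCK4 (-5.40 and 1.29). Under 8 other ways to compute the values, 40 of the 103 probes passed both thresholds in all 8 and 27 in 7. In 4 of the 8 all 103 probes passed, so a probe that passed in only 4 failed in every other one. Of the genes described here, STOX1, NRP1, GSTM2, SLC25A27, NOS3, NAA16, RUFY2, ABI2, YTHDC1 and APC2 and the second probes of PGM5 and NDRG1 passed in 4 of the 8, CYP4B1 and GK in 5, and MECOM, CXXC4, F3, RASA4, ACTA1, TRIM74, UBQLNL and the second probe of BAG3 in 6.

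The clearest example was PGM5, which encodes aciculin, a relative of phosphoglucomutase found at cell adhesion sites in muscle. Its levels were 0.78 in parental SkBr3, -6.08 in SkBr3/Lap, -4.78 in parental BT474 and 0.42 in BT474/Lap. It was therefore high in parental SkBr3 and BT474/Lap, which were close to each other, and near the dim end of the array in the other samples, a 116-fold decrease in one line and a 36.8-fold increase in the other. All 4 probes named for PGM5 had this order. A second probe passed the rule with -3.07 and 1.31, and the other 2 probes were not well above background in SkBr3/Lap and parental BT474. Against the dimmest signal counted as well above background on those arrays, or their own signal where that was higher, these 2 probes were at least 23.2-fold and at least 9.86-fold lower in SkBr3/Lap and at least 11.7-fold and at least 4.35-fold higher in BT474/Lap. PGM5 has near-identical copies elsewhere in the genome, so the probes cannot tell which copy was transcribed.

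**Figure D2:**
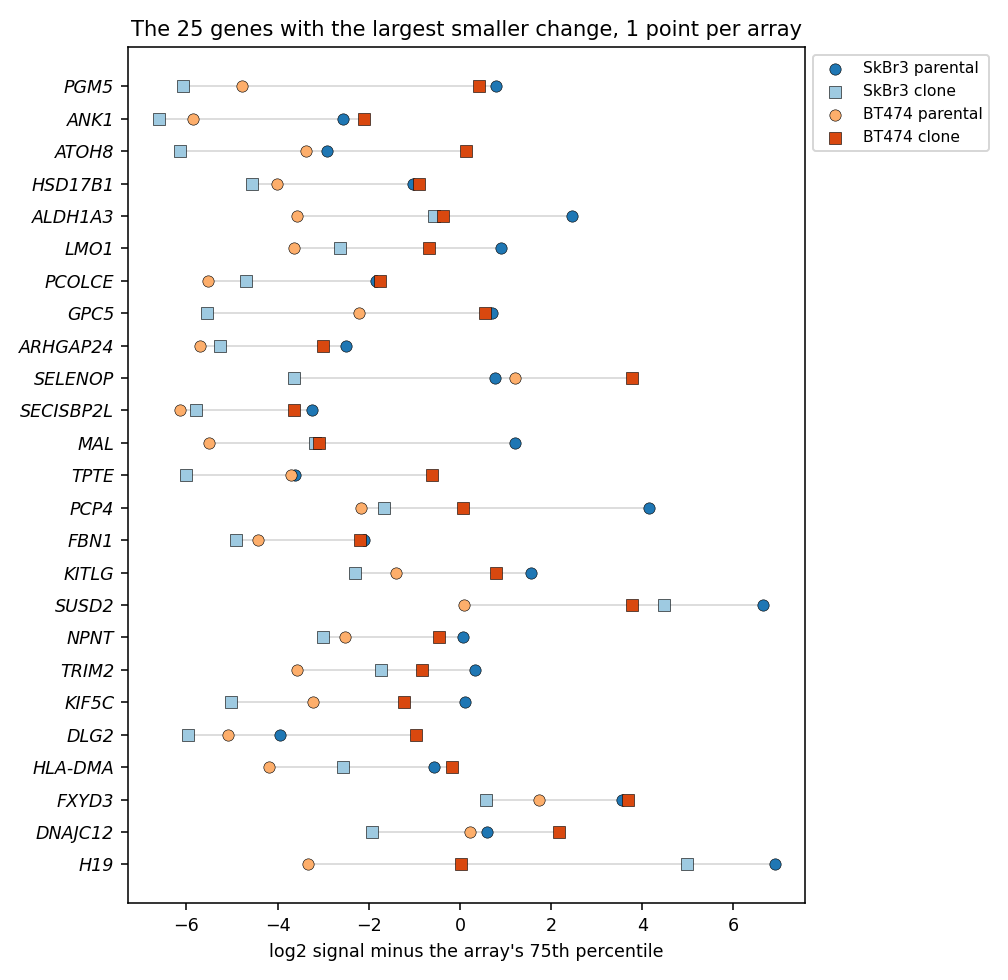
Level of 25 genes on each array (log2 signal minus the array's 75th percentile), for the genes with the largest value of the smaller of their 2 absolute changes, with circles for parental cells, squares for clones, blue for SkBr3 and orange for BT474. In most rows parental SkBr3 and BT474/Lap lie on the right and SkBr3/Lap and parental BT474 on the left. In SELENOP parental BT474 lies above parental SkBr3, and in ATOH8, TPTE and DNAJC12 it lies close to parental SkBr3. In H19 and SUSD2 both SkBr3 samples lie above both BT474 samples.

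Enzymes of steroids, retinoids and lipids made up 6 genes with 7 probes, and their median changes were -3.04 and 2.37. HSD17B1, the enzyme that makes estradiol from estrone, had levels of -1.04, -4.57, -4.01 and -0.90 in parental SkBr3, SkBr3/Lap, parental BT474 and BT474/Lap. The samples thus fell into a high pair, parental SkBr3 and BT474/Lap, and a low pair. A second HSD17B1 probe also passed, with changes of -4.17 and 2.37 against -3.53 and 3.11 for the first. ALDH1A3, which makes retinoic acid, had levels of 2.47, -0.58, -3.57 and -0.38 in the same order of samples. Here SkBr3/Lap and BT474/Lap were nearly level, with the parental cells far apart above and below them. DHRS3, which reduces retinaldehyde back to retinol, had levels of 3.52, 2.12, -0.09 and 1.64, and so it stayed higher in both SkBr3 samples than in both BT474 samples while its changes were -1.39 and 1.73. CYP4B1, a cytochrome P450 monooxygenase, had levels of -0.09, -1.45, -0.72 and 2.05, with the highest in BT474/Lap. The other 2 genes of the group, named after their values were seen, were PLA2G2A, a secreted phospholipase with changes of -4.26 and 1.87, and SULT2B1, a sterol sulfotransferase with -1.88 and 1.51.

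Transcription regulators made up 10 genes with 12 probes, with median changes of -3.37 and 1.73. Parental SkBr3 was above parental BT474 for 10 of the 12 probes, and both exceptions were the probes of STOX1. ATOH8, a basic helix-loop-helix factor, had levels of -2.91, -6.13, -3.37 and 0.12 in parental SkBr3, SkBr3/Lap, parental BT474 and BT474/Lap. It was clearly highest in BT474/Lap, and the parental samples were close to each other. LMO1, a LIM-only cofactor of transcription, had levels of 0.89, -2.63, -3.65 and -0.69, with parental SkBr3 at the top. ID1, an inhibitor of helix-loop-helix factors that responds to BMP signalling, had levels of 4.95, 1.00, 3.61 and 5.03. Parental SkBr3 and BT474/Lap were almost equal, and its level fell by 3.94 in SkBr3/Lap, against a gain of 1.43 in BT474/Lap. CITED4, a coactivator that binds CBP and p300, passed with both probes, and the changes were -1.76 and 2.14 for one and -1.70 and 1.68 for the other. The remaining genes were named after their values were seen. MECOM, a zinc finger factor, and HR, a nuclear corepressor, had changes of -5.27 and 1.61 and of -5.04 and 1.71. GRHL3, a grainyhead factor of epithelia, had -3.86 and 1.74, and CXXC4 had -4.09 and 1.59. STOX1 was the reverse case, at the threshold in SkBr3/Lap and 17.6-fold and 17.2-fold higher in BT474/Lap by its 2 probes, and its level was low on both SkBr3 arrays (-4.79 and -6.10 by the probe with the larger change).

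Secreted and matrix proteins made up 9 genes, with median changes of -2.86 and 2.23. PCOLCE, which speeds the processing of procollagens, had levels of -1.83, -4.69, -5.52 and -1.76 in parental SkBr3, SkBr3/Lap, parental BT474 and BT474/Lap. GPC5, a heparan sulfate proteoglycan of the cell surface, had levels of 0.70, -5.56, -2.22 and 0.55. In both genes parental SkBr3 and BT474/Lap were almost equal. The loss of GPC5 in SkBr3/Lap was 76.5-fold and its gain in BT474/Lap 6.84-fold. FBN1, the fibrillin of elastic microfibrils, had levels of -2.10, -4.92, -4.43 and -2.20, and NPNT, an integrin ligand of basement membranes, had levels of 0.06, -3.01, -2.52 and -0.47. Both again formed a high pair and a low pair with little distance inside each. COL4A5, a collagen IV chain, had levels of 0.03, -6.77, -1.84 and -0.34, but its other measured probe had changes of -1.09 and -0.43, so the gain in BT474/Lap rests on 1 probe. SELENOP, the plasma carrier of selenium, differed in order, with levels of 0.77, -3.64, 1.20 and 3.77, so that parental BT474 was above parental SkBr3. SECISBP2L, a relative of the protein that reads selenocysteine codons, also belonged to the set, with changes of -2.55 and 2.499. Its signal in parental BT474 was 16.3, near the lowest counted as well above background on that array (15.96). Its other measured probe had -1.28 and 1.39, just outside the threshold in SkBr3/Lap.

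Ligands, receptors and other surface proteins made up 11 genes with 13 probes, with median changes of -1.92 and 1.98. KITLG, the ligand of the KIT receptor, had levels of 1.56, -2.31, -1.40 and 0.78 in parental SkBr3, SkBr3/Lap, parental BT474 and BT474/Lap. A second probe passed with -3.58 and 1.53, and the last measured probe had -2.90 and 1.14, just under the threshold in BT474/Lap. All probes of KITLG measured on the 4 arrays therefore had the same signs. SUSD2, a sushi domain membrane protein, had levels of 6.64, 4.47, 0.09 and 3.78, so both SkBr3 samples stayed above both BT474 samples. TNFSF10, the death ligand TRAIL, was spotted 10 times and had levels of -4.64 ± 0.20 in parental SkBr3, -6.47 ± 0.26 in SkBr3/Lap, -2.00 ± 0.09 in parental BT474 and 1.51 ± 0.07 in BT474/Lap (mean ± SD over 10 spots of 1 array). Its spots in the SkBr3 samples were dim, with signals of 44.8 and 23.4, and its change in BT474/Lap was 11.4-fold. The differences exceeded the spread between spots, which is not a spread between samples. WNT3A, a Wnt ligand, had changes of -1.84 and 1.98 with a level under -4 in both SkBr3 samples. NRP1, a co-receptor of semaphorins and VEGF, passed by 1 dim probe with -1.74 and 1.47. Its other probes had larger losses in SkBr3/Lap, with a change of -5.90 for a probe measured on all arrays, which rose by 1.08 in BT474/Lap, and a decrease of at least 70.4-fold for one not well above background in SkBr3/Lap, with a 4.75-fold gain in BT474/Lap.

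HLA-DMA, a chain of the dimer that loads peptides on class II MHC, passed with both probes. Its levels by the first were -0.56, -2.55, -4.20 and -0.16 in parental SkBr3, SkBr3/Lap, parental BT474 and BT474/Lap. BT474/Lap and parental SkBr3 were high, and parental BT474 was lowest. The other class II genes were looked up after these values were seen. In BT474/Lap, HLA-DRB1 was 7.36-fold, HLA-DQB1 4.27-fold and 1 probe of HLA-DPB1 4.35-fold higher than in parental BT474. HLA-DMB was at least 39.4-fold and HLA-DRA at least 52.2-fold higher, HLA-DPA1 at least 2.13-fold and CD74, the invariant chain, at least 2.15-fold. HLA-DQA1 had a lower signal in BT474/Lap, 24.9 against 44.7. In SkBr3/Lap, HLA-DRB1 changed by -0.21 and HLA-DQB1 by -0.15, and HLA-DRA, HLA-DMB and CD74 were not well above background in parental SkBr3. HLA-DOA and HLA-DOB, whose products form an inhibitor of HLA-DM, had changes of 0.19 and 0.93 and of 1.28 and -0.67 by the probes measured on the 4 arrays. Among the class II genes with a value in both SkBr3 samples, HLA-DMA was the 1 with a decrease past the threshold. CIITA, the activator of class II genes, had 2 probes. One had a decrease of at least 7.46-fold in SkBr3/Lap and an increase of at least 2.93-fold in BT474/Lap, and the other was 8.04-fold higher in BT474/Lap and not well above background in either SkBr3 sample. HLA-DRB1 has close paralogs whose transcripts its probe may also bind.

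Scaffolds, cytoskeletal proteins and regulators of small GTPases formed the largest role group, with 15 genes and median changes of -1.81 and 1.73. ANK1, an ankyrin that ties membrane proteins to spectrin, had levels of -2.56, -6.61, -5.85 and -2.11 in parental SkBr3, SkBr3/Lap, parental BT474 and BT474/Lap. It had a 16.6-fold decrease and a 13.3-fold increase, and another ANK1 probe was at least 7.03-fold lower and at least 5.21-fold higher. SPTB, the beta spectrin that binds ankyrin, was named after its values were seen and had a decrease of at least 6.27-fold in SkBr3/Lap and an increase of at least 4.59-fold in BT474/Lap. ARHGAP24, a GTPase-activating protein for Rac, had processed signals of 198, 53.9, 22.4 and 210.1, and its level changed by -2.77 and 2.69, again with a high pair and a low pair. KIF5C, a kinesin heavy chain, had levels of 0.11, -5.02, -3.22 and -1.22, with a 35.0-fold loss in SkBr3/Lap and a 4.01-fold gain in BT474/Lap. DLG2, a synaptic scaffold, had levels of -3.96, -5.96, -5.09 and -0.96. A second DLG2 probe measured on all arrays had changes of 0.07 and 0.17, and another, dim in SkBr3/Lap and parental BT474, was at least 4.05-fold lower and at least 6.76-fold higher, so the probes of this gene disagreed.

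Metabolic enzymes made up 10 genes, PGM5 among them, with median changes of -1.77 and 1.65. CA12, a membrane carbonic anhydrase that responds to estrogen in breast cells, had the largest decrease of the set, with levels of 4.04, -5.42, 3.39 and 5.02 in parental SkBr3, SkBr3/Lap, parental BT474 and BT474/Lap. It was high everywhere except in SkBr3/Lap, where its signal fell from 18276 to 48.5, while the gain in BT474/Lap was 3.10-fold. A second CA12 probe had a decrease of at least 307-fold in SkBr3/Lap and a 3.25-fold increase in BT474/Lap. GSTM2, a glutathione transferase with close relatives, had changes of -1.32 and 1.71 at low levels in every sample. The others, named after their values were seen, included LDHD, a lactate dehydrogenase for the D form (-3.11 and 1.76), GK, glycerol kinase (-1.43 and 2.94), PDK2, a kinase that switches off pyruvate dehydrogenase, and NOS3, the endothelial nitric oxide synthase. The other GK probes measured on all arrays had -0.29 and 2.43 and -0.70 and 2.46. Among measured probes, the GK decrease past the threshold in SkBr3/Lap thus rests on 1 probe. NOS3 was spotted 10 times, with levels of -2.49 ± 0.05, -4.26 ± 0.19, -2.60 ± 0.20 and -1.22 ± 0.06 in the same order of samples (mean ± SD over 10 spots).

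Transporters and channels made up 5 genes, with median changes of -2.98 and 1.92. SLC5A8, a sodium-coupled transporter of short-chain fatty acids, had levels of -0.35, -6.83, -2.68 and -0.91 in parental SkBr3, SkBr3/Lap, parental BT474 and BT474/Lap, an 89.2-fold decrease and a 3.40-fold increase. FXYD3, a regulator of the sodium pump, had levels of 3.55, 0.57, 1.74 and 3.68, so its probe was bright on all arrays and parental SkBr3 and BT474/Lap were almost equal. KCNK13, a background potassium channel, and SLC25A27, a mitochondrial uncoupling carrier, had changes of -1.65 and 2.65 and of -1.39 and 1.92. Both were dim in the SkBr3 samples and in parental BT474, where no KCNK13 or SLC25A27 signal exceeded 100.

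Chaperones and proteins of the ubiquitin pathway made up 7 genes with 9 probes, with median changes of -1.71 and 1.94. BAG3, a co-chaperone of HSP70, passed with both probes, and its levels by the first were 1.82, 0.42, -0.45 and 2.99 in parental SkBr3, SkBr3/Lap, parental BT474 and BT474/Lap. It was highest in BT474/Lap, 10.8-fold above parental BT474. DNAJC12, a J domain co-chaperone, had levels of 0.60, -1.94, 0.23 and 2.17, with nearly equal parental samples. TRIM2, a ubiquitin ligase, passed with both probes (-2.05 and 2.73, and -1.72 and 2.61).

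Calcium-binding and vesicle proteins made up 5 genes, with median changes of -1.67 and 2.24. PCP4, which modulates calmodulin, had levels of 4.15, -1.67, -2.18 and 0.07 in parental SkBr3, SkBr3/Lap, parental BT474 and BT474/Lap. MAL, a proteolipid of apical transport, had levels of 1.22, -3.18, -5.51 and -3.09. In both genes parental SkBr3 stood far above the other samples. S100A4, a calcium-binding protein linked to cell motility, had levels of 6.79, 5.25, 1.75 and 3.75, and both SkBr3 samples stayed above both BT474 samples. SYT12, a synaptotagmin, passed by a dim probe (-1.65 and 2.24), and its other measured probe had -1.03 and 1.88.

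Of the remaining genes, 8 act in RNA, translation or nuclear transport and 8 have other roles. H19, an imprinted noncoding RNA, had levels of 6.90, 4.99, -3.34 and 0.01 in parental SkBr3, SkBr3/Lap, parental BT474 and BT474/Lap. The lines differed by far more than either clone differed from its parent, with parental SkBr3 above parental BT474 by 10.24. NDRG1, a gene induced by hypoxia and differentiation, passed with both probes (-2.85 and 1.45, and -3.47 and 1.31). SAMD9, an interferon-inducible gene, had -1.76 and 2.22. TPTE, a membrane phosphatase related to tensin with a close paralog, had levels of -3.62, -6.002, -3.70 and -0.62. Like ATOH8, it was even in the parental samples. A second TPTE probe was well above background in SkBr3/Lap alone and did not have the signs of the set. Its signals were 3.19, 19.6, 3.19 and 2.95 in the same order of samples.

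The 4 levels of a gene have an order that the rule fixes only in part, since it sets each clone against its own parental cells and not the lines against each other. For 86 of the 103 probes parental SkBr3 was above parental BT474, against 51.7% of all named probes, and the median difference was 1.58 on the log2 scale. In the clones SkBr3 was above BT474 for 8 of the 103 probes, against 52.9% of all named probes, and the median difference was -2.81. The order of the lines crossed between parental cells and clones, from SkBr3 above to SkBr3 below, for 78 probes and for 14.3% of all named probes. SkBr3 was above BT474 in both pairs for 8 probes, and below in both for 17. In the opposite set the parental SkBr3 level was the higher one for 9 of 60 probes and the SkBr3/Lap level for 54 of 60. The rule makes SkBr3 minus BT474 fall from parental cells to clones for every probe of the set, and rise in the opposite set. The crossings and the difference between the parental and clone shares therefore follow largely from the rule. It also favours probes with a high parental SkBr3 level and a low parental BT474 level. The parental share and the clone share are thus not independent of the rule either, and nothing is read from them about the genes. These values come from the same arrays as the rule and are given as a description.

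**Figure D3:**
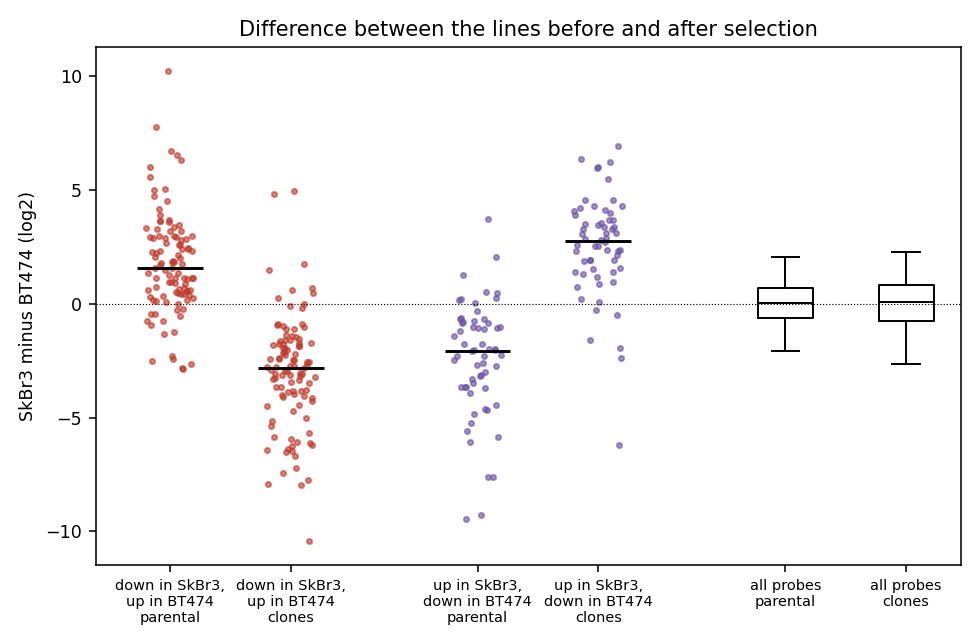
Level in SkBr3 minus level in BT474 (log2), in parental cells and in clones, with a point for each probe and a bar at the median for the set (red) and the opposite set (purple), and boxes (quartiles, whiskers at the 5th and 95th percentiles) for the 16398 named probes. The medians of the set are 1.58 in parental cells and -2.81 in clones, those of the opposite set -2.05 and 2.78, and those of all probes 0.04 and 0.08.

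The highest of the 4 levels was in BT474/Lap for 59 probes and in parental SkBr3 for 44. The lowest was in SkBr3/Lap for 71 and in parental BT474 for 32. Parental SkBr3 and BT474/Lap lay within 1 of each other on the log2 scale for 44.7% of the set, and for 65.6% of all named probes. The low ends were dim. In SkBr3/Lap 50 of the 103 probes had a signal under 100, in parental BT474 43, in parental SkBr3 16 and in BT474/Lap 3, against 10.07%, 14.3%, 14.6% and 9.89% of all named probes. A signal of at least 100 on all arrays was found for 39 probes. No spot of the set was saturated.

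Other probes of the same genes were not used by the rule as such, although they lie on the same arrays. Of the 94 genes, 9 had at least 2 probes in the set, namely PGM5, HSD17B1, KITLG, TRIM2, HLA-DMA, CITED4, BAG3, NDRG1 and STOX1, and 53 had a single named probe. A further 31 probes, of 22 genes, met the background criterion. Of these, 28 were lower in SkBr3/Lap, 25 were higher in BT474/Lap and 23 were both, whereas 24.1% of all named probes had these signs, and 5 of the 31 were at least 1 in both. In 15 of the 22 genes all other measured probes had the signs of the set. In ABI2, COL4A5, DLG2, OLA1, RASA4 and YTHDC1 none had, and in APC2 1 of 2 had. OLA1, for example, had changes of -1.54 and 1.59 by the probe of the set, at signals between 56.9 and 249, and of 0.08 and -0.58 by another probe with signals of 3830 or more. The set holds genes with close copies or paralogs (PGM5, GK, TPTE, TRIM74, RASA4, ACTA1 and GSTM2), whose probes may bind more than 1 transcript.

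**Figure D4:**
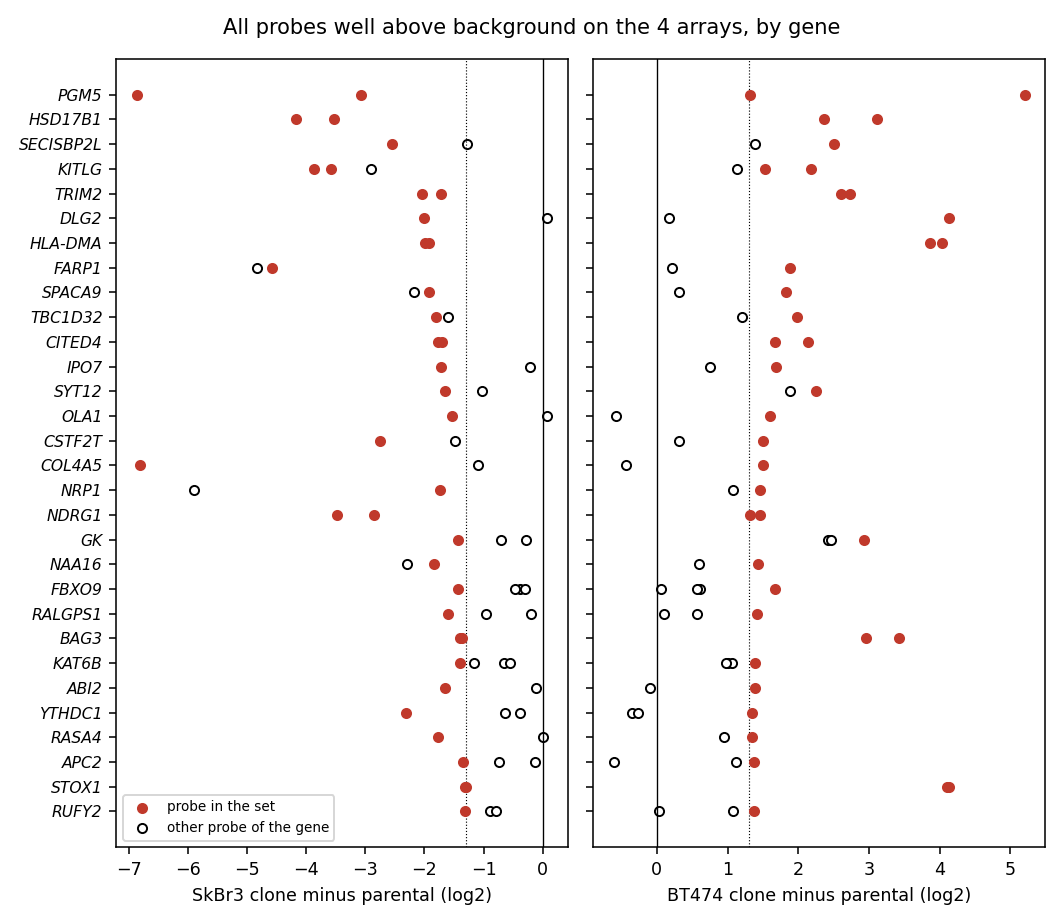
Log2 changes of every probe well above background on the 4 arrays for the 30 genes of the set with more than 1 such probe, SkBr3/Lap on the left and BT474/Lap on the right, with filled points for probes in the set and open points for other probes of the gene. The dotted line is the threshold. Open points of OLA1, ABI2, YTHDC1 and COL4A5 and 1 of APC2 lie left of 0 in BT474/Lap, and those of DLG2, OLA1 and RASA4 lie at or right of 0 in SkBr3/Lap.

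Further probes were kept out of the set because they were not well above background where the set is low. With the dim sample placed at the lowest signal counted as well above background on its array, or at its own signal if higher, 43 probes of 42 genes passed the same threshold, and 7 of these genes were already in the set. The SkBr3/Lap array alone was dim for 19 of the probes, the parental BT474 array alone for 13 and both for 11. These probes had to be well above background in parental SkBr3 and BT474/Lap, where the set is high. Neither their share of all such probes nor a count in the opposite direction was taken, so nothing is read from their number. Their names were taken after their values were seen. SPINK4, a secreted protease inhibitor, had a decrease of at least 13.9-fold in SkBr3/Lap and a 26.9-fold increase in BT474/Lap. TMEM139 was 7.51-fold lower and at least 301-fold higher, and GLYATL2, an acyltransferase, had a 75.6-fold decrease and at least a 12.1-fold increase. CBLN2, a secreted synaptic organiser, was at least 10.3-fold lower and 109-fold higher. PLIN1, which coats lipid droplets, was at least 5.76-fold lower and 10.5-fold higher, and THRSP, a nuclear protein of fat synthesis, was at least 362-fold lower and 3.02-fold higher. CIDEC, another lipid droplet protein, had changes of 0.00 and -0.29. The list of fatty acid and lipid metabolism, with 28 measured genes, held no gene of the set, and 6 of them were lower and 5 higher in SkBr3/Lap, and 2 lower and 1 higher in BT474/Lap.

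Gene lists of known pathways were used to place the set. A gene was represented by its probe with the highest mean level, and over all 11517 genes 8.23% were at or below -1.3 and 6.89% at or above 1.3 in SkBr3/Lap, while 2.61% were at or below -1.3 and 3.96% at or above 1.3 in BT474/Lap. The medians over all genes were -0.10 and -0.11. Of the 55 lists, 38 held no gene of the set, among them HER2-positive luminal identity (22 measured genes), keratins (23), mucins and secretory epithelium (20), receptor tyrosine kinases and EGF-family ligands (21), NF-kB targets (21) and proliferation (44). The other 17 lists held 1 or 2 each, where the set makes up 0.816% of all measured genes.

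Of 30 measured genes of retinoid metabolism and nuclear receptors, ALDH1A3 and DHRS3 were in the set. In SkBr3/Lap 6 of the 30 were lower and 1 was higher past the threshold, and in BT474/Lap 2 were lower and 4 higher, with list medians of -0.24 and -0.07. RARG, a retinoic acid receptor, had changes of -1.56 and 1.05, and CRABP2, which carries retinoic acid to the nucleus, had -4.87 and 0.70. RXRA, the partner of these receptors, had -0.78 and 1.08. PPARG, the receptor of fat cell differentiation, had -1.20 and 4.48. RARG, CRABP2 and RXRA had the signs of the set and were outside the threshold in BT474/Lap. These genes and PPARG were named after their values were seen, and the genes past the threshold in the other direction, counted above, were not named.

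Of 29 measured genes of TGF-beta and BMP signalling, ID1 was in the set, and 7 were lower and 4 higher in SkBr3/Lap, while 3 were lower and 5 higher in BT474/Lap, with list medians of -0.52 and 0.18. The other ID genes and the SMAD genes were named after their values were seen. The ID genes differed among themselves. ID3 had -0.92 and 2.13, ID2 had -2.995 and -0.37, and ID4 had 2.55 and 1.44. The inhibitory SMAD genes, which are induced by the pathway they restrain, had -2.81 and 0.52 for SMAD6 and -0.76 and 0.83 for SMAD7. SMAD9, a BMP-activated SMAD, had -0.74 and 1.82 at signals between 25.9 and 45.1 in the samples other than BT474/Lap.

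Of 42 measured cytochrome P450 and aldehyde dehydrogenase genes, ALDH1A3 and CYP4B1 were in the set, with 8 lower and 5 higher in SkBr3/Lap and 1 lower and 8 higher in BT474/Lap. CYP4Z1, a P450 of mammary tissue, had -4.10 and 1.24, just outside the threshold. Of 17 measured genes of MHC and antigen presentation, HLA-DMA was the 1 gene lower past the threshold in SkBr3/Lap, where 6 were higher and the list median was 1.03, and in BT474/Lap 1 was lower and 3 were higher, with a median of 0.22.

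**Figure D5:**
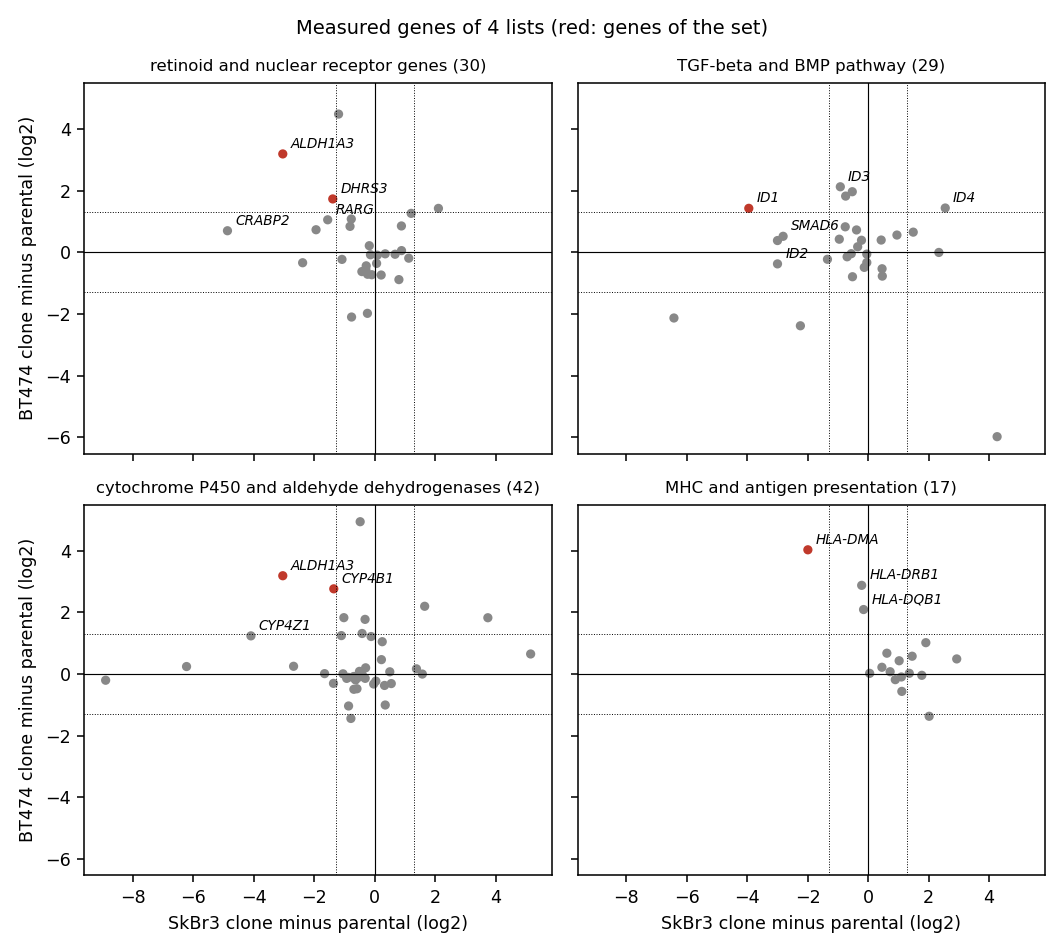
Log2 change in SkBr3/Lap (horizontal) against that in BT474/Lap (vertical) for the measured genes of 4 lists, with genes of the set in red and the threshold of 1.3 as dotted lines. ALDH1A3, DHRS3, ID1, CYP4B1 and HLA-DMA lie in the upper left, and most genes of the lists lie near the centre.

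Of 22 measured estrogen response genes, CA12 was in the set, with 8 lower and 3 higher in SkBr3/Lap and 2 lower and 5 higher in BT474/Lap, and medians of -0.61 and 0.26. TFF1 and TFF3, secreted peptides of the same list, had -2.28 and -0.58 and -6.96 and -0.46, so they shared the loss in SkBr3/Lap and not the gain. Of 26 genes of the unfolded protein response and heat shock, BAG3 was the 1 gene higher in BT474/Lap, and HSPA1A, HSPA8 and DNAJB1, which act with it, had changes of -0.80, -0.32 and 0.04 there. Of 30 measured collagen and matrix genes, FBN1 and COL4A5 were in the set, while 14 were higher and 4 lower in SkBr3/Lap, with a list median of 0.95. Of 24 S100 and annexin genes S100A4 was in the set, with 4 lower and 7 higher in SkBr3/Lap.

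In the other lists, TNFSF10 was 1 of 20 TNF superfamily genes, SAMD9 1 of 23 interferon response genes, NDRG1 1 of 33 genes of glycolysis and hypoxia, GSTM2 1 of 33 NRF2 and glutathione genes, WNT3A 1 of 30 Wnt genes and KCNK13 1 of 80 ion channel genes. SLC5A8 and SLC25A27 were 2 of 221 solute carriers, and ARHGAP24 1 of 97 genes of the cytoskeleton and motility. SYT12 and NRP1 were 2 of 55 neuronal and axon guidance genes, but by their brightest probes, which stand for a gene in the lists, SYT12 had -1.03 and 1.88 and NRP1 -5.90 and 1.08, and no gene of this list passed both thresholds. Among the solute carriers 19 were lower and 19 higher in SkBr3/Lap, and among the interferon genes 2 were lower and 6 higher there.

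The genes of the set were not next to each other in the genome. In the gene order of RefSeq on GRCh38.p14, among genes measured on all arrays, none of their 187 neighbours was in the set. Of the neighbours, 7.49% were lower past the threshold in SkBr3/Lap and 4.81% higher in BT474/Lap, close to the 8.23% and 3.96% of all genes. Single neighbours, named after their values were seen, moved strongly in 1 line. S100A6, beside S100A4, had signals of 211357, 39.3, 100996 and 175019 in parental SkBr3, SkBr3/Lap, parental BT474 and BT474/Lap, by a single probe. INPP5F, beside BAG3, was 4.17 higher in BT474/Lap and unchanged in SkBr3/Lap (0.02), and DSCAM, beside PCP4, was 5.08 higher in BT474/Lap and 1.01 lower in SkBr3/Lap. Across the autosomes and chromosome X, between 0.258% of the measured genes, 1 of 387 on chromosome 14, and 2.63%, 5 of 190 on chromosome 13, were in the set.

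Promoter sequences of the set were searched for known motifs. RefSeq promoters on GRCh38.p14, from 250 bases before to 50 after the start of the gene, were found for 78 of the 94 genes and for 9375 measured genes in all. Their median GC content was 64.8%, against 65.0% for all measured genes. The AP-1 motif (TGANTCA, either strand) was in 6 of the 78, or 7.69%, against 4.51% of measured genes and 7.76% of all 27305 promoters. The TATA motif (TATAAA) was in 12.8% against 6.12% and 11.95%, and the GC box (GGGCGG) in 61.5% against 69.6% and 44.6%. CCAAT was in 26.9% against 37.3% and 35.7%, and the E-box (CACGTG) in 5.13% against 10.3% and 7.43%. The palindromic estrogen response element was in none of the 78, and in 2 of the 9375 measured genes. The AP-2 motif (GCCNNNGGC) was in 34.6% of the set and 31.8% of measured genes, and the core of the hypoxia element (ACGTG), which the E-box contains, in 25.6% and 26.7%. The cyclic AMP element (TGACGTCA) was in 1.28% and 3.25%, and the ETS motif (CCGGAAGT) in 3.85% and 8.89%. The GATA motif (AGATAA) was in 5.13% of the set and 4.97% of measured genes. The forkhead motif (TGTTTAC) was in 3.85% and 2.12%, and the RUNX motif (TGTGGT) in 7.69% and 9.58%. The interferon-stimulated response element was in 3.85% and 2.59%, and the STAT motif (TTCNNNGAA) in 5.13% and 6.14%. All motifs were searched on both strands. Some of these motifs overlap, since the AP-2 and GC box letters can share bases, and a match is a description of the letters and not of binding. The AP-1 match of the remaining promoter, that of UBQLNL, lay after the gene start. The following stretches of 60 bases hold the AP-1 matches (capitals) before the start in the other 5 genes, with 2 matches each in F3 and LYPD1.

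BAG3, chr10:119651320-119651379, plus strand: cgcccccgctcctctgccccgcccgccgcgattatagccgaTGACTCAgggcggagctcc
F3, chr1:94541943-94542002, minus strand: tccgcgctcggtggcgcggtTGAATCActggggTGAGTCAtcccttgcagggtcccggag
LMO1, chr11:8268854-8268913, minus strand: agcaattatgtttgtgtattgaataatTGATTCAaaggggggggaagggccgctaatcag
LYPD1, chr2:132671707-132671766, minus strand: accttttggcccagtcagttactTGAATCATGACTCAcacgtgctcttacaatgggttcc
NAA16, chr13:41311026-41311085, plus strand: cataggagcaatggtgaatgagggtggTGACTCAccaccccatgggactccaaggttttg

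These 5 genes, in which the match began between 19 and 214 bases before the start at its nearest, differed in size of change. BAG3 had -1.40 and 3.43, LMO1 -3.52 and 2.96, LYPD1 -3.86 and 1.67, F3 -1.98 and 1.58, and NAA16 -1.84 and 1.43. F3 is tissue factor, which starts coagulation, LYPD1 is a surface protein of the Ly6 family and NAA16 a subunit of an N-terminal acetyltransferase. The promoter of TNFSF10 held the interferon element in capitals (chr3:172523583-172523642, minus strand): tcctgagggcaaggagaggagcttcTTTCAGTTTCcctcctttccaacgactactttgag. Its start lay 187 bases before the gene start, and the promoters of TRIM2 and SAMD9 held this motif as well. The promoter of S100A4, a bright gene of the set, held the TATA motif in capitals, 31 bases before the start (chr1:153545807-153545866, minus strand): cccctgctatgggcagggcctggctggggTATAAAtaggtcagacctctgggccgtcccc.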

How the data were processed

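Total RNA of 4 samples was labelled with Cy3 and hybridised to Agilent whole genome 4 × 44 K arrays, 1 per sample. The authors deposited spot intensities (processed signal, background subtracted by Feature Extraction 10.1.1.1 per the file headers, while the study's methods name an earlier version, both dyes and LOWESS). The deposited table of log2 values was made by the authors from the same arrays. A probe's mean over the 4 arrays in it had a median absolute value of 0.17, and its median 0.16. The deposited values were thus not centred exactly on either, and how they were centred was not established. Their differences between samples had r = 1.00 with those used here. For each probe the mean log2 processed signal over its spots was taken, minus the 75th percentile of the array's 41000 non-control probes. A probe met the background criterion if Feature Extraction marked 50% or more of its spots well above background. RefSeq accessions named 23680 probes (GRCh38.p14 annotation, used for names, gene order and promoters; the array design names hg18). Python 3.11.15 with pandas 2.3.3 and, for the normexp alternative, limma 3.58.1 in R 4.3.3 were used. Selection was tested on simulated data with planted opposite changes. The simulated arrays shared a common baseline and had the same noise for every probe, unlike the real arrays. It therefore checks only that the rule picks planted changes, and says nothing about the genes of the set. Medians and counts were recomputed under 14 alternatives. There is no test, since each group has 1 array.

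The members, lists and rules were chosen with earlier results of these data known. Role groups were assigned after the values were seen, and gene family prefixes in the lists were limited to symbols that go on with a digit, except for some families, after the data were seen. Genes named by rule are the 25 with the largest value of the smaller absolute change, the 5 brightest, the genes of the set in a list and those at the threshold. ERBB2, CDH1, ESR1, KRT18 and the cell type markers served as checks. All other genes, also genes of a list outside the set, were named after their values were seen, even where the text does not say so. No protein or probe sequences were used here.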

Additional observations from a re-analysis of the deposited data

Results flagged for a closer look

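The 94 genes were marked for a closer look because all of their 103 probes went down in SkBr3/Lap and up in BT474/Lap. The median difference between the clones' changes, BT474 minus SkBr3, was 4.33 on the log2 scale. The difference between the lines was not tested, since each group has 1 array, and the opposite signs follow from how the probes were chosen.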

How the results depend on the processing

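All 103 probes kept both signs under each of 8 other ways to compute the values, and 40 probes of 36 genes, PGM5, ANK1, HSD17B1, ALDH1A3, GPC5, HLA-DMA and CA12 among them, passed the threshold in all 8. A further 27 probes passed in 7, 12 in 6, 6 in 5 and 18 in 4, and the last include STOX1, NRP1, GSTM2, NOS3, NAA16 and the second probes of PGM5 and NDRG1. All 103 passed with the percentile over well-measured probes, the deposited log2 table, outlier spots left out and only spots well above background. The 18 therefore failed with the array median, quantile normalization, normexp and 16 added before the log2. All 974 recomputed values of the 43 named genes kept their sign. These genes, like the whole set, were chosen for changes past the threshold in both clones, so a reversed sign was unlikely from the start. The kept signs of these values and of the 103 probes are therefore no evidence that the set is robust. The set counted 103 probes of 94 genes by the settings above. It counted 125 and 114 with the percentile over well-measured probes, 64 and 59 with the array median, 80 and 75 with quantile normalization, 50 and 45 with normexp, 79 and 73 with 16 added before the log2, 252 and 228 without the filter on dim probes, 39 and 37 with signals of at least 100, 205 and 185 at a threshold of 1, 22 and 21 at a threshold of 2, and 76 genes with probes averaged by gene. The median change in SkBr3/Lap was -1.92 as reported, -1.76 with the array median, -1.77 with quantile normalization, -1.49 with normexp, -2.00 without the dim filter, -1.82 at signals of at least 100, -1.67 at a threshold of 1 and -3.37 at 2. The median change in BT474/Lap was 1.83 as reported, 1.94 with the percentile over well-measured probes, 1.62 with the array median, 1.59 with normexp, 1.68 with 16 added, 1.98 without the dim filter, 1.73 at signals of at least 100, 1.505 at a threshold of 1, 2.75 at 2 and 1.74 by gene. Parental SkBr3 was above parental BT474 for 193 probes without the dim filter and for 33 at signals of at least 100, which hold more and fewer probes. The cause of the other differences was not tested. Leaving out outlier spots, using only spots well above background, requiring every spot to be so and using the deposited log2 table gave counts and medians close to those reported. Averaging by gene gives no count of probes.

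With the array median, the median of all named probes was 0.06 in SkBr3/Lap, instead of -0.09, and -0.32 in BT474/Lap, instead of -0.11. Decreases then made up 43.5% of the calls in SkBr3/Lap, instead of 54.7%, and increases 41.6% of those in BT474/Lap, instead of 60.3%. No paired analysis was possible because each group has 1 array and the groups share a single replicate number. Each clone was compared with the parental cells of its own line throughout, and a model with line and a clone effect common to both lines was not run. Signals near background limit the fold changes of dim probes.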
